A study of Rattus norvegicus with 6 samples.

Results

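Proenkephalin, encoded by Penk, is the precursor of the enkephalins, the endogenous opioid peptides with the highest affinity for the delta opioid receptor. Of 9 genes of the opioid system followed here in rat synovial fibroblast-like cells, Penk was the one with the most reads, and it was at its lowest in fetal bovine serum and at its highest in serum of needle-stimulated animals within each of 2 rats. The other 8 were the peptide precursors Pdyn (prodynorphin), Pomc (proopiomelanocortin) and Pnoc (prepronociceptin), the receptors Oprd1 (delta), Oprm1 (mu), Oprk1 (kappa) and Oprl1 (nociceptin), and Ogfr, the opioid growth factor receptor. They were taken by symbol from a table of 17221 transcript rows with 16499 symbols, in which they held 14 rows, and the row with the most reads stood for each symbol. Penk, Ogfr and Pomc passed the filter on low values (at least 1 CPM, counts per 1000000 reads of scaled library size, in both libraries of 1 or more sera), Oprl1 had a handful of reads, and the other 5 had no read in any library. The group was chosen by the differences in Penk CPM between the sera, so the levels of the 9 are a description and carry no test.

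Opioid precursors are cut by prohormone convertases and trimmed by carboxypeptidases inside secretory vesicles, and the released peptides are broken down at the cell surface by aminopeptidases and neprilysin. Delta, mu, kappa and nociceptin receptors couple to inhibitory G proteins, which lower the activity of adenylyl cyclase. Transcription of Penk responds to cyclic AMP and to AP-1 factors, and the gene is also active in mesenchymal cells outside the nervous system, while Met-enkephalin in its role as opioid growth factor binds Ogfr at the nucleus.

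The cells were RA synovial fibroblast-like cells, grown from the synovium of female Wistar rats with collagen-induced arthritis before any therapy; their age is not given in the labels. Cells of each of 2 rats (RA1 and RA2 in the labels, rat 1 and rat 2 here) were divided over 3 culture sera, which gave 6 libraries, 2 per serum. FBS is the standard medium with fetal bovine serum. MS- (AP- in the labels) is medium with blood serum of untreated animals, where the labels name arthritic rats in some fields and healthy rats in another, and MS+ (AP+, acupuncture) is medium with blood serum drawn after 18 days of subcutaneous needle stimulation. The paper's text describes the MS- donors as untreated animals with induced arthritis, while its sampling summary lists healthy animals (NOCIA) beside stimulated ones for blood serum. MS- and MS+ differ from FBS in species of origin, and MS+ also in treatment of the donors. Per the paper, MS- serum was drawn ahead of therapy and MS+ serum at day 18. Stimulation, time of sampling and any difference in disease state of the donors thus cannot be told apart between MS+ and MS-. Neither the number of serum donors nor any pooling is given in the labels.

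Between 5463316 and 5991889 reads were assigned per library, so that 3 reads, taken as the floor of detection, correspond to 0.491 to 0.551 CPM. The 12 synovial fibroblast markers summed to 81216 and 88071 CPM in FBS, 62857 and 65464 CPM in MS-, and 71299 and 73987 CPM in MS+, with collagens, Vim and Thy1 at high CPM, whereas Dcn had 7 reads in all and Prg4 67 reads. Of 10 macrophage markers 6 had no read, among them Ptprc, Adgre1 and Itgam, and the sum ran from 13.8 to 14.6 CPM in FBS, 17.2 to 20.5 CPM in MS- and 16.5 to 17.7 CPM in MS+. Most of that sum was Cd14, at 13.1 and 12.1 CPM in FBS, 19.4 and 16.3 in MS-, and 16.8 and 13.9 in MS+. The p-values given for other genes rest on 2 rats and measure only the spread between these libraries.

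Penk was counted on a single transcript row (rn4 chromosome 5, from 17509323 to 17514265, minus strand) that no other row of the table overlaps. In rat 1, Penk stood at 190.5 CPM in FBS, 1112 CPM in MS- and 2206 CPM in MS+. In rat 2, Penk stood at 1482 CPM in FBS, 5588 CPM in MS- and 9675 CPM in MS+. Both rats thus had the same order of sera, and no count was small: 1164 reads were behind the lowest value and 52716 reads behind the highest, the latter 0.965% of all reads of its library. As the RNA came from whole cultures, more cells transcribing Penk and more Penk RNA per cell cannot be told apart.

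**Figure D1:**
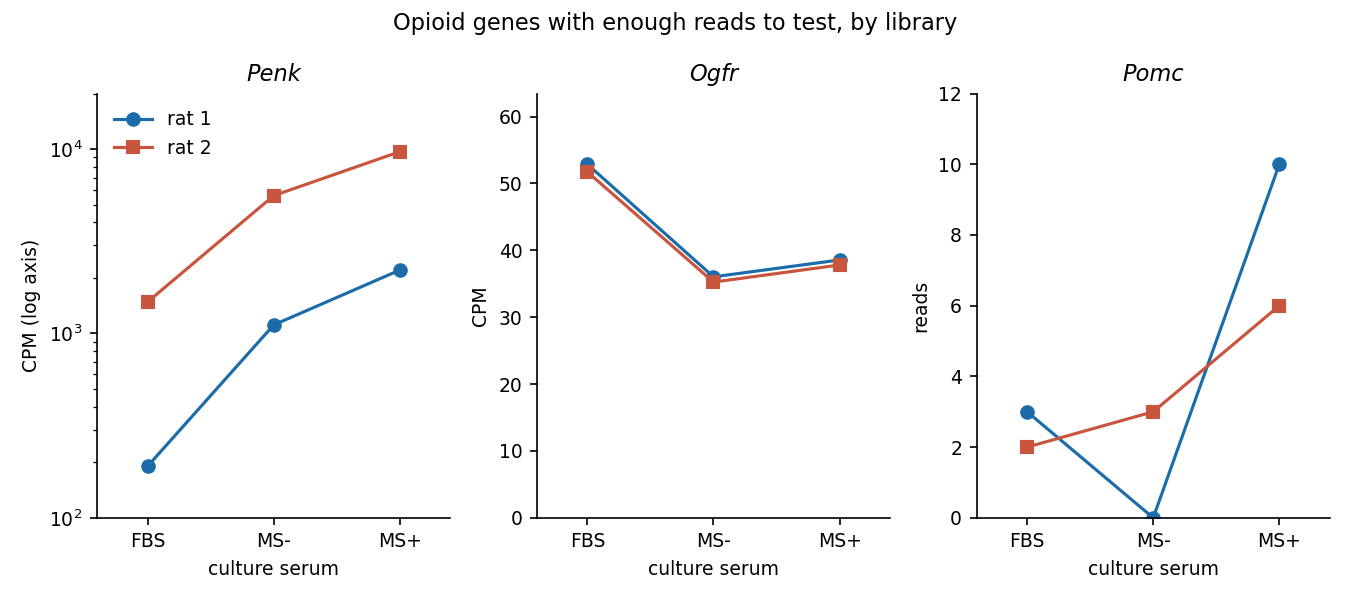
Level of Penk (CPM, log axis), Ogfr (CPM) and Pomc (reads) against culture serum, with 1 line per rat and 1 point per library. Both Penk lines climb from FBS to MS+ and rat 2 lies above rat 1 throughout, the 2 Ogfr lines nearly coincide with FBS highest at 52.9 and 51.7 CPM, and Pomc stays at or below 10 reads.

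Within rat 1, Penk CPM was 11.6-fold higher in MS+ than in FBS (95% exact counting interval 10.9 to 12.3). Within rat 2 it was 6.53-fold higher (6.38 to 6.68). MS- against FBS gave 5.84-fold in rat 1 (5.48 to 6.22) and 3.77-fold in rat 2 (3.68 to 3.86). The step from MS- to MS+ was smaller and closer between the rats, 1.98-fold in rat 1 (1.92 to 2.05) and 1.73-fold in rat 2 (1.71 to 1.76). The intervals cover counting error only, as reads amplified by PCR without molecular identifiers are not independent molecules, and with 1 library per rat and serum the difference between rats in these ratios was not tested.

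On the log2(CPM + 1) scale the mean difference of Penk was 3.12 for MS+ against FBS, 2.23 for MS- against FBS and 0.89 for MS+ against MS-. The standard error of each was 1.17 when the rat was left out of the model and 0.14 when the rat was a block. The groups overlapped across rats: the FBS library of rat 2 (1482 CPM) exceeded the MS- library of rat 1 (1112 CPM), and the MS- library of rat 2 (5588 CPM) exceeded the MS+ library of rat 1 (2206 CPM). Leaving out 1 library leaves the rats unevenly spread over the sera, and the MS+ against MS- difference then became -0.27 without the MS- library of rat 1 and -0.18 without the MS+ library of rat 2, and 2.05 without the MS- library of rat 2 or 1.96 without the MS+ library of rat 1. For MS+ against FBS it was 1.64 without the FBS library of rat 1, 4.59 without that of rat 2 and 2.05 without the MS+ library of rat 2. For MS- against FBS it was 0.75 without the FBS library of rat 1, 3.70 without that of rat 2, and 3.39 and 1.06 without the MS- library of rat 1 and of rat 2.

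Among the 9820 features tested, the Penk difference ranked 10 from the top for MS+ against FBS, 11 for MS- against FBS and 134 for MS+ against MS-. Counting only features at least as high as Penk in both rats, 5 others stood with it for MS+ against FBS, 5 for MS- against FBS and 71 for MS+ against MS-. The first and last of these comparisons share the MS+ libraries and the first pair the FBS libraries, so that the ranks are not independent of each other. As Penk was chosen by its differences between these sera, high ranks were built into that choice and support nothing. In the plot of within-rat differences, Penk lies at the outer edge of the cloud in both comparisons with FBS and within its upper part for MS+ against MS-.

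**Figure D2:**
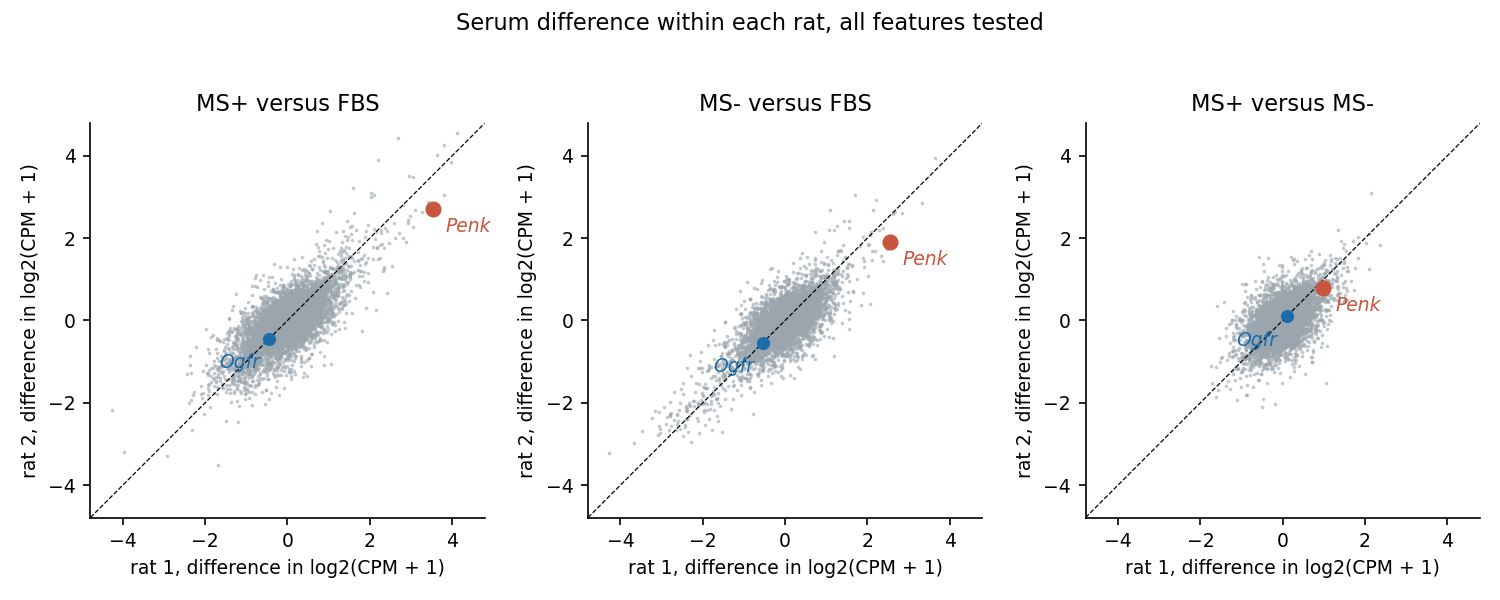
Difference in log2(CPM + 1) between 2 sera within rat 1 (horizontal axis) and within rat 2 (vertical axis), for each of the 9820 features tested (grey), with equality of the rats as the dashed line. Penk sits at 3.53 and 2.71 for MS+ versus FBS, at 2.54 and 1.91 for MS- versus FBS and at 0.99 and 0.79 for MS+ versus MS-, below the dashed line each time, while Ogfr lies on it.

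The 2 rats differed in Penk by more than MS+ and MS- did. Rat 2 had 7.78 times the Penk CPM of rat 1 in FBS, 5.02 times in MS- and 4.39 times in MS+, or 2.95, 2.33 and 2.13 on the log2(CPM + 1) scale. Differences of this size were uncommon: 94.8% of the features tested differed by less than 1 on this scale between the rats in every serum, and the median difference lay between -0.0031 and 0.0038. Only 11 other features were higher in rat 2 by at least 2.13 in all 3 sera, and 3 were lower by as much.

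The 11 features, found after their values were seen, were Gpm6b, Sim2, Agtr1a, Gdf10, Eln, Mfap5, Esm1, Mmp23, Mfap4, Npy and Aoc3. Eln (elastin) and the microfibril-associated Mfap4 and Mfap5 form elastic fibres, Agtr1a is a receptor of angiotensin II, and Npy is, like Penk, the precursor of a neuropeptide. Eln stood at 81.5, 33.7 and 47.9 CPM in FBS, MS- and MS+ of rat 1 and at 743, 649 and 588 CPM in rat 2. Npy stood at 0.819, 0 and 1.08 CPM in rat 1 and at 8.46, 8.50 and 13.8 CPM in rat 2. The 3 features lower in rat 2 were Barx1 (a homeobox factor), Dgkb (a diacylglycerol kinase) and a row listed as LOC290595, now Gpr15lg. Ogfrl1, named for its likeness to Ogfr, was also higher in rat 2, with 16.2, 16.3 and 11.7 CPM in rat 1 against 60.2, 51.5 and 43.5 CPM in rat 2.

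Some markers of other cells also differed between the rats, not all in the same direction. Among the skeletal muscle markers, Myh1, a myosin heavy chain, was at 24.2, 47.6 and 19.6 CPM in FBS, MS- and MS+ of rat 1 and at 271, 209 and 88.3 CPM in rat 2, while Ckm had 12 reads and Myog 1 read in all. Myh2 and Myh4 were likewise higher in rat 2 in every serum. Acta1 was lower in rat 2, at 1113, 912 and 1200 CPM in rat 1 against 929, 766 and 1026 CPM. It made up most of the sum over all 8 muscle markers. That sum was 1155, 986 and 1235 CPM in rat 1 and 1285, 1039 and 1154 CPM in rat 2. The sum over 10 neuron markers was higher in rat 1, at 37.3, 25.1 and 17.7 CPM against 8.79, 7.59 and 8.81 CPM in rat 2. Nearly all of it was Stmn2, with Elavl4, Rbfox3 and Nefh at 0. The sum over 7 chondrocyte markers, nearly all of it Acan, was lowest in MS- of each rat. It was 2588.5, 1456 and 2673 CPM in rat 1 and 3017, 1829 and 2541 CPM in rat 2, while Col2a1 had 9 reads in all. The part of these cells in the Penk difference was not tested.

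Pomc, the precursor of beta-endorphin, melanocortins and adrenocorticotropin, was near the floor (rn4 chromosome 6, from 26931969 to 26937789, plus strand). It had 24 reads in all: 3 in rat 1 and 2 in rat 2 with FBS, 0 and 3 with MS-, and 10 and 6 with MS+. The MS+ libraries were thus the only ones above 1 CPM, at 1.80 and 1.10 CPM, and they alone carried Pomc through the filter, so that a difference was built into its inclusion. The CPM ratio of MS+ to FBS was 3.67 in rat 1 (95% exact counting interval 0.945 to 20.7) and 3.32 in rat 2 (0.594 to 33.6), and that of MS+ to MS- was 2.03 in rat 2 (0.434 to 12.5), intervals that all include 1. In rat 1, where MS- had no Pomc read, the lower bound of the MS+ to MS- ratio was 2.21.

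Pdyn, precursor of the dynorphins, and Pnoc, precursor of nociceptin, had 0 reads in each of the 6 libraries, where the floor of 3 reads corresponds to 0.491 to 0.551 CPM. Oprd1 and Oprk1 were likewise at 0 reads throughout. Oprm1 was at 0 on all 6 of its rows, but these rows overlap each other, and reads that fall on several rows were not assigned, so that the count speaks only of reads unique to 1 row. Oprl1 (rn4 chromosome 3, from 170869154 to 170875080, plus strand) had 4 reads, of which 1 and 2 were in FBS and 1 was in the MS+ library of rat 2. No difference in receptor transcripts was detectable at this depth, and presence of the receptors below the floor cannot be told.

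Ogfr was the single opioid-binding receptor of the group with sizeable counts (rn4 chromosome 3, from 169679762 to 169686048, plus strand). It stood at 52.9 and 51.7 CPM in FBS, 36.0 and 35.2 CPM in MS-, and 38.6 and 37.8 CPM in MS+ (rat 1 and rat 2), from 195 to 323 reads. The rats differed little, with rat 2 at 0.978 to 0.981 times rat 1 in each serum. FBS lay above both blood sera without overlap, with a log2 difference of -0.44 for MS+ against FBS and -0.54 for MS- against FBS, while MS+ lay above MS- by 0.10. Groups without overlap were common in these data: 28.3% of features were lower in MS+ than in FBS in this way, 24.5% lower in MS- than in FBS and 22.6% higher in MS+ than in MS-. Counting intervals of the MS+ to MS- ratio of Ogfr included 1 in each rat (0.877 to 1.30 in rat 1 and 0.878 to 1.31 in rat 2).

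To see what surrounds the peptides and receptors, 63 genes of 3 groups were examined, namely peptide processing and storage, enkephalin breakdown, and receptor signalling and regulation; 61 were in the table and 43 passed the filter. A gene is said to pass the study rule when its unadjusted p was under 0.05, it differed at least 2-fold and its mean CPM was at least 1, and to pass the adjusted threshold when its Benjamini-Hochberg adjusted p over all 9820 features was under 0.05, both from limma. For MS+ against FBS, 6 of the 43 passed the study rule (14% against 5.3% of all features), 4 of them higher (2.37% of all features) and 2 lower (2.92%), and 9 passed the adjusted threshold (20.9% against 9.61%). With library totals in place of the deposited scaling the study rule gave 2 higher and 3 lower. For MS- against FBS, 3 passed the study rule, all higher (6.98% against 3.62% of all features, or 1.24% counting higher ones only), and 4 the adjusted threshold (9.3% against 4.81%).

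For MS+ against MS-, 1 of the 43 passed the study rule (2.33% against 1.24% of all features, of which 0.845% were higher and 0.397% lower), and this call was absent without the MS+ library of rat 2. An unadjusted p under 0.05 by limma was reached by 4 of the 43, beside 1446 of all 9820 features. The adjusted threshold was passed by 0 of the 43 by limma, edgeR or limma-voom, against 2 of all features by limma (0.0204%). With the rat as a block, 3 passed, all lower (6.98% against 10.1% of all features in either direction and 4.78% lower). The block brought the adjusted calls to 18 for MS+ against FBS (41.9% against 28.2%) and to 14 for MS- against FBS (32.6% against 20.5%). The median difference of the 43 genes was -0.09, -0.09 and -0.01 for MS+ against MS-, MS+ against FBS and MS- against FBS, beside -0.01, 0.00 and 0.01 over all features.

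**Figure D3:**
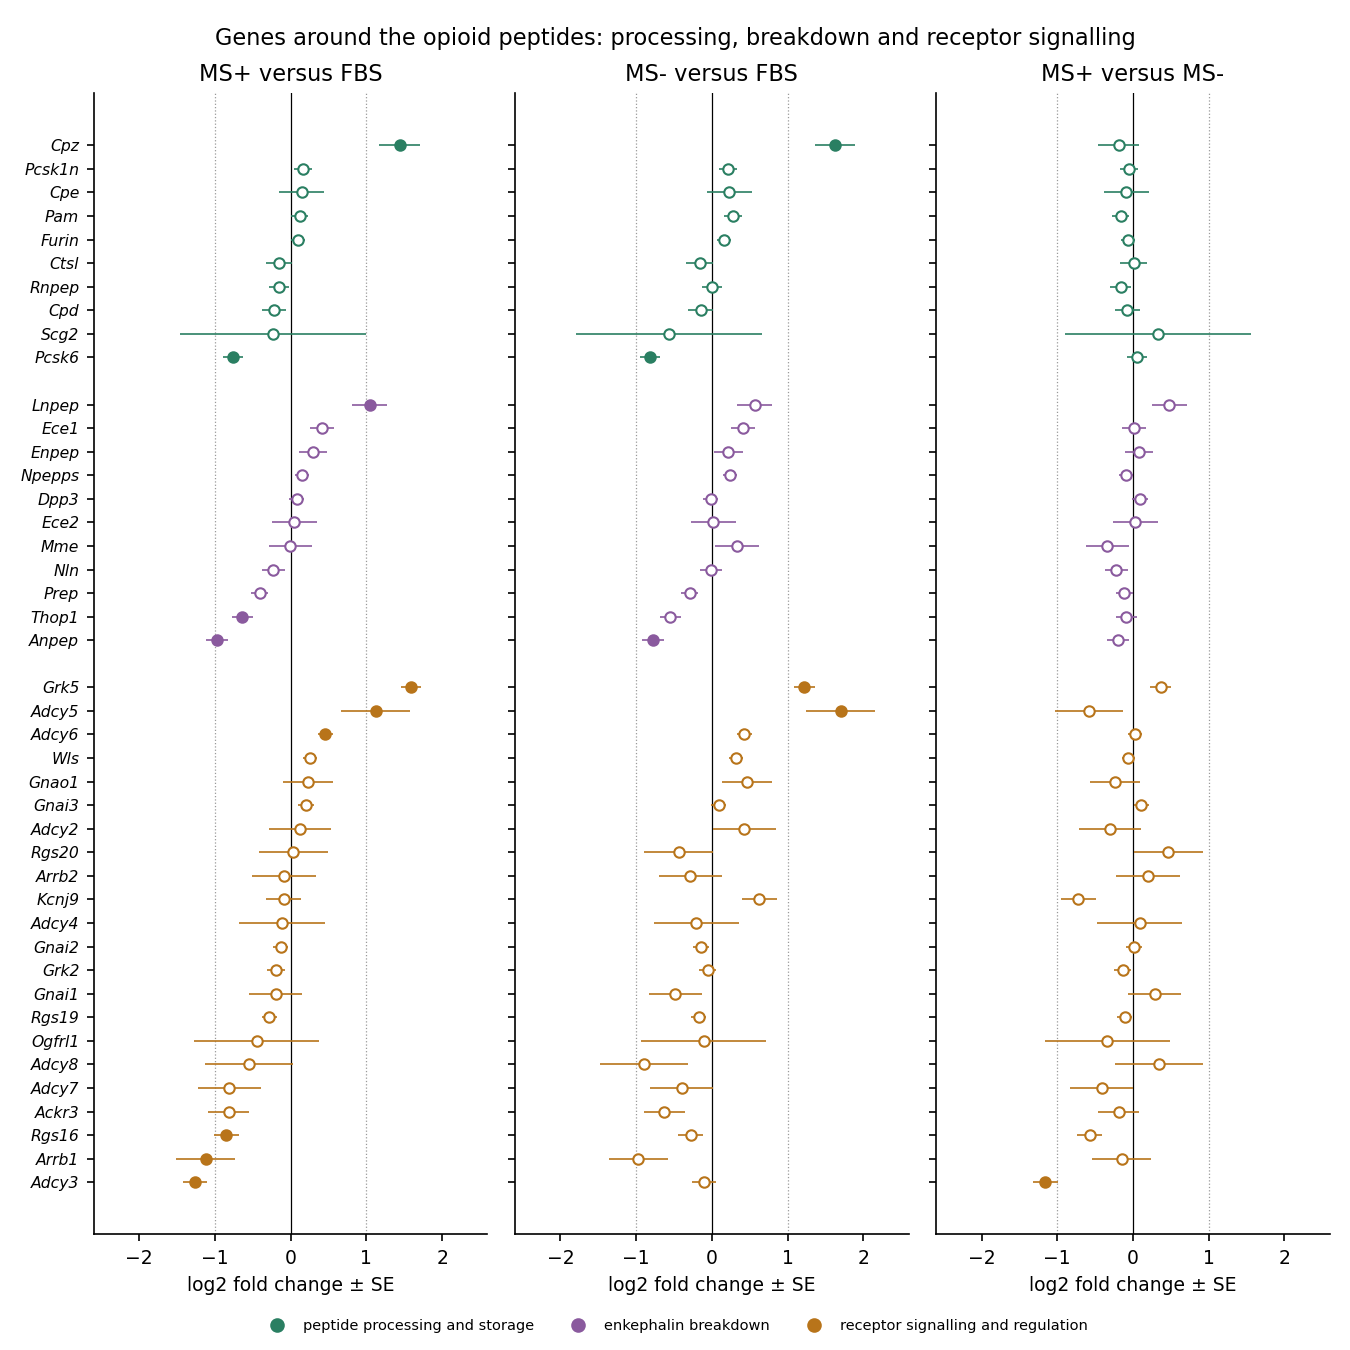
Log2 fold change ± SE (limma, rat not blocked) of the 43 genes tested of peptide processing and storage (green), enkephalin breakdown (purple) and receptor signalling (ochre), in 3 comparisons of sera; filled points pass the study rule or the adjusted threshold, and dotted lines mark a 2-fold difference. Filled points such as Cpz (1.44 and 1.63) and Grk5 (1.59 and 1.22) stand in both comparisons with FBS, and Adcy3 (-1.16) is the single filled point for MS+ versus MS-.

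Of 17 genes of processing and storage, 10 were tested, and Cpz rose while Pcsk6 fell in both blood sera. The prohormone convertases of endocrine cells were nearly absent, with 5 reads for Pcsk1 and 3 for Pcsk2, as were the chromogranins Chga (2 reads) and Chgb (1 read). Pam, which amidates peptides, had the highest CPM of the group, 1613 and 1699 in FBS and 1687 to 2038 in the other sera, and it passed only for MS- against FBS with the rat as a block (0.28, adjusted p = 0.0381, 0.038 to 0.55 over the alternatives). Cpz, a secreted carboxypeptidase that removes basic residues, stood at 8.84 and 10.6 CPM in FBS, 25.2 and 40.5 in MS-, and 23.2 and 33.6 in MS+. The difference was 1.44 for MS+ (SE 0.27, limma adjusted p = 0.0240) and 1.63 for MS- (SE 0.27, adjusted p = 0.0229) against FBS, on 792 reads. Pcsk6, a constitutive convertase, stood at 70.6 and 61.5 CPM in FBS, 35.9 and 38.3 in MS-, and 42.0 and 35.4 in MS+, with differences of -0.76 (SE 0.13, adjusted p = 0.0206) and -0.81 (SE 0.13, adjusted p = 0.0226). The Pcsk6 call did not survive the omission of any of the 4 libraries of either comparison, where adjusted p rose to 0.0561 to 0.110 for MS+ and 0.0607 to 0.140 for MS-.

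Of 13 genes of enkephalin breakdown, 11 were tested, and of the aminopeptidases Anpep fell while Lnpep rose in MS+. Ece1, an endothelin-converting enzyme, had the highest CPM of the group, 115 and 142 in FBS and 152 to 192 in the other sera. It passed only with the rat as a block, with 0.42 for MS+ against FBS (adjusted p = 0.00175, 0.0017 to 0.47 over the alternatives) and 0.41 for MS- against FBS (adjusted p = 0.00289, 0.0029 to 0.60 over the alternatives). Anpep (aminopeptidase N), which cleaves the first residue of enkephalins, stood at 69.4 and 80.4 CPM in FBS, 39.9 and 46.8 in MS-, and 40.5 and 34.9 in MS+. It fell by 0.97 in MS+ (SE 0.14, adjusted p = 0.0114) and by 0.78 in MS- (SE 0.14, adjusted p = 0.0307). Its MS+ call was lost without the FBS library of rat 2 (adjusted p = 0.0604) or the MS+ library of rat 2 (0.0694), and its MS- call without any 1 of the 6 libraries (0.0559 to 0.175) and without a filter on low values (0.0594). Mme (neprilysin), the other main enkephalin-degrading enzyme, stood at 85.6 and 64.8 CPM in FBS, 104 and 85.3 in MS-, and 101 and 54.3 in MS+ and passed neither threshold.

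Lnpep and Thop1 passed a threshold for MS+ against FBS and not for MS- against FBS, but the difference between MS+ and MS- passed for neither (0.48 for Lnpep and -0.09 for Thop1). Lnpep (insulin-regulated aminopeptidase), whose row overlaps another of the same symbol, stood at 4.09 and 5.97 CPM in FBS, 8.23 and 7.41 in MS-, and 12.8 and 9.91 in MS+. Its difference was 1.04 (SE 0.23, adjusted p = 0.0391), and it passed neither threshold without the FBS library of rat 1 (adjusted p = 0.165) or the MS+ library of rat 1 (0.187). Thop1 (thimet oligopeptidase) stood at 37.8 and 31.3 CPM in FBS, 22.9 and 23.5 in MS-, and 22.3 and 21.1 in MS+, with a difference of -0.64 (SE 0.14, adjusted p = 0.0369) that passed no longer without any 1 of the 6 libraries (0.0671 to 0.168) or without a filter (0.0580). With the rat as a block Thop1 also passed for MS- against FBS (adjusted p = 0.0102, range over the alternatives 0.0056 to 0.35), where Anpep and Pcsk6 kept their calls.

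Of 33 genes of receptor signalling and regulation, 22 were tested, and the adenylyl cyclases, the enzymes that opioid receptors restrain, went in different directions. For MS+ against FBS, 4 of the 22 passed the adjusted threshold (18.2% against 9.61% of all features), Grk5 and Adcy6 as higher and Adcy3 and Rgs16 as lower. Adcy6 (0.46, SE 0.10, adjusted p = 0.0340) and Rgs16 (-0.85, SE 0.17, adjusted p = 0.0272), a regulator of G protein signalling, were singled out after their values were seen. The Adcy6 call was lost without any 1 of the 6 libraries (adjusted p from 0.0589 to 0.162), and the Rgs16 call without any library but the FBS library of rat 1 (0.0528 to 0.143). Adcy3 stood at 45.2 and 43.3 CPM in FBS and 45.2 and 37.2 in MS-, against 20.2 and 15.8 in MS+. Both MS+ libraries were below the other 4, and Adcy3 fell by 1.26 against FBS (SE 0.16, adjusted p = 0.00840). Against MS- it passed the study rule with a difference of -1.16 (SE 0.16) but not the adjusted threshold (adjusted p = 0.0917, 6.4e-05 with the rat as a block, 3.3e-05 to 0.46 over the alternatives), and not without the MS+ library of rat 2 (-0.99). Adcy5 stood at 14.4 and 34.5 CPM in FBS, 56.0 and 101 in MS-, and 38.2 and 65.0 in MS+.

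Adcy5 was higher in rat 2 in every serum. Its MS- and MS+ libraries overlapped each other across rats, but MS+ lay below MS- within each rat, and all 4 lay above both FBS libraries. Between MS+ and MS-, Adcy5 passed only with the rat as a block (-0.58, limma adjusted p = 0.00886 with the block, 0.617 without). It passed the study rule with 1.70 for MS- against FBS (SE 0.46, adjusted p = 0.0932, 1.7e-07 with the rat as a block, 3.3e-08 to 0.36 over the alternatives). For MS+ against FBS it had 1.12 (SE 0.46, adjusted p = 0.169, 1.0e-05 with the rat as a block, 6.4e-06 to 0.53 over the alternatives). The study rule was missed for MS- without the MS- library of rat 2 (1.29, adjusted p = 0.358), and for MS+ without the FBS library of rat 1 (0.52) or the MS+ library of rat 2 (0.75). Without the FBS library of rat 1 the MS- difference was 1.10, and without the FBS library of rat 2 the MS+ difference was 1.72. The MS+ call was also missed without a filter, with library totals, by edgeR and by limma-voom, at differences of 1.07 to 1.15.

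Grk5, a kinase that phosphorylates activated G protein-coupled receptors, stood at 16.4 and 19.1 CPM in FBS, 39.1 and 46.3 in MS-, and 55.9 and 54.5 in MS+. It rose by 1.59 in MS+ (SE 0.14, adjusted p = 0.00342) and by 1.22 in MS- (SE 0.14, adjusted p = 0.00604), and kept a call under every alternative tried. Arrb1 (beta-arrestin 1), which binds phosphorylated receptors, passed the study rule for MS+ against FBS with -1.12 (SE 0.39, adjusted p = 0.119, 0.00982 with the rat as a block, 0.0069 to 0.31 over the alternatives) on 123 reads, and its row overlaps that of another gene. Its call was lost without the FBS library of rat 2 or either MS+ library (adjusted p from 0.291 to 0.312). Gnai2, an inhibitory G protein subunit and the gene of the group with the highest CPM, stood at 1363 and 1249 CPM in FBS, 1207 and 1154 in MS-, and 1194 and 1184 in MS+ and passed neither threshold. Ackr3, a chemokine receptor that also takes up opioid peptides, stood at 257 and 171 CPM in FBS, 162 and 114 in MS-, and 145 and 97.5 in MS+ and passed only with the rat as a block, with -0.82 for MS+ (adjusted p = 4.1e-06 with the block, 0.109 without, 1.8e-06 to 0.38 over the alternatives); it was singled out after its values were seen.

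Of 18 transcription factors known to act on Penk or its relatives, 15 were tested, and 3 of them, Fos, Fosb and Atf3, passed the study rule, each as lower in MS+. The other AP-1 genes tested, Fosl1, Jun, Junb and Jund, did not pass it in any comparison. Fos stood at 289 and 299 CPM in FBS, 248 and 394 in MS-, and 178 and 104 in MS+. Fosb, listed under an older locus symbol, stood at 362 and 338 CPM in FBS, 271 and 492 in MS-, and 190.3 and 113 in MS+, and Atf3 at 9.99 and 6.47, 7.68 and 5.97, and 4.32 and 1.84 CPM. All 3 were lowest in MS+ and passed the study rule as lower both against MS- (3 of 15, 20%, against 0.397% of all features) and against FBS (3 of 15, 20%, against 2.92%), 2 comparisons that share the MS+ libraries. The adjusted threshold was passed by 0 of the 15 by limma against MS-, beside 0.0204% of all features. Against FBS 1 of the 15 passed it, as higher (6.67% against 9.61% of all features).

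For Fos the differences were -1.19 against MS- (SE 0.29, adjusted p = 0.165, 0.00161 with the rat as a block, 0.00085 to 0.50 over the alternatives) and -1.10 against FBS (SE 0.29, adjusted p = 0.0608, 0.00072 with the block, 0.00044 to 0.21 over the alternatives). For Fosb they were -1.31 against MS- (adjusted p = 0.165) and -1.25 against FBS (adjusted p = 0.0572), and for Atf3 -1.001 against MS- (adjusted p = 0.269) and -1.22 against FBS (adjusted p = 0.0792). None of the 3 passed in either comparison without the MS+ library of rat 2, where Fos had -0.80 and -0.72, Fosb -0.94 and -0.87, and Atf3 -0.55 and -0.77. The MS- call was also lost for Fos (-0.86) and Fosb (-0.88) without the MS- library of rat 2 and for Atf3 without the MS- library of rat 1 (-0.84) or with median-of-ratios factors (-0.995), and the FBS call of Atf3 without the FBS library of rat 1 (-0.94). With the block, Fosb (adjusted p = 0.00159 and 0.00057) and Atf3 (0.0115 and 0.00096) passed the adjusted threshold against MS- and FBS, over ranges of 0.00076 to 0.49 and 0.00032 to 0.22 for Fosb and 0.012 to 0.61 and 0.00096 to 0.30 for Atf3.

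Creb3l1, a membrane-bound relative of CREB and the gene of this group with the highest CPM, stood at 557 and 489 CPM in FBS, 579.7 and 616 in MS-, and 745 and 749 in MS+. It rose by 0.52 in MS+ against FBS (SE 0.10, adjusted p = 0.0281, 0.00033 to 0.14 over the alternatives), a call lost without any 1 of the 6 libraries (0.0586 to 0.136), and it passed against MS- only with the rat as a block (0.32, adjusted p = 0.0266, 0.025 to 0.58 over the alternatives). Junb, another AP-1 gene, stood at 316 and 358 CPM in FBS, 600.0 and 661 in MS-, and 403 and 329.8 in MS+, and rose by 0.90 in MS- against FBS (SE 0.13, adjusted p = 0.0143), a call lost without the FBS library of rat 1 (adjusted p = 0.0984) or either MS- library (0.0766 and 0.106). Between MS+ and MS-, Junb passed only with the rat as a block (-0.79, adjusted p = 0.00022, 0.00013 to 0.46 over the alternatives).

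Of 16 genes known to respond to cyclic AMP, 12 were tested, and Per1 and Nr4a1 rose in both blood sera while Akap12 passed only for MS+ against FBS. Per1, a clock gene with cyclic AMP response elements, stood at 33.7 and 40.0 CPM in FBS, 106 and 104 in MS-, and 168 and 146 in MS+. It rose by 2.06 in MS+ (SE 0.12, adjusted p = 0.00093) and by 1.49 in MS- (SE 0.12, adjusted p = 0.00234) against FBS, with both calls kept under every alternative tried. The difference of 0.58 between MS+ and MS- passed only with the rat as a block (adjusted p = 0.00352 with the block, 0.138 without, 0.0011 to 0.47 over the alternatives).

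Nr4a1, an immediate early nuclear receptor, stood at 189 and 226 CPM in FBS, 399.9 and 386 in MS-, and 429 and 317 in MS+, and rose by 0.83 in MS+ (SE 0.16, adjusted p = 0.0257) and by 0.93 in MS- (SE 0.16, adjusted p = 0.0265). Its MS+ call was lost without any library but the MS+ library of rat 2 (adjusted p from 0.0507 to 0.127), and its MS- call without the FBS library of rat 1 or either MS- library (0.129 to 0.154), and both without a filter (0.0521 and 0.0603). Akap12, an anchor of protein kinase A whose row overlaps another of the same symbol, stood at 9.99 and 12.3 CPM in FBS, 15.7 and 28.2 in MS-, and 20.9 and 42.9 in MS+. It passed the study rule for MS+ against FBS (1.36, SE 0.38, adjusted p = 0.0716, 3.5e-05 with the rat as a block, 7.2e-06 to 0.25 over the alternatives) but not without the MS+ library of rat 2 (0.86). Of the 12 genes, 2 passed the study rule for MS+ against FBS as higher (16.7% against 2.37% of all features) and 1 for MS- against FBS (8.33% against 1.24%), with median differences of 0.42 and 0.22.

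The profile of Penk over the 6 libraries was then compared with that of each other feature, as the root mean square difference of log2(CPM + 1) after centring each on its own mean. The 6 nearest were Sult1a1 (0.80), Nov, now Ccn3 (0.84), Fam46b, now Tent5b (0.88), Slco2a1 (0.90), Rassf2 (0.90) and Sulf2 (0.91), against a root mean square of 1.81 for the centred profile of Penk itself. None followed Penk closely, and the measure carries no test, as all features share the same 6 libraries. Rassf2 (0.164 and 0.332 CPM in FBS, 0.915 and 4.88 in MS-) passed the filter only through MS+, so that a difference was built into its inclusion. Sult1a1 was near the floor in FBS. Sult1a1 is a phenol sulfotransferase, Ccn3 a matricellular protein, Slco2a1 the prostaglandin transporter and Sulf2 an extracellular sulfatase that edits heparan sulfate.

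Sult1a1 stood at 0.327, 3.29 and 7.57 CPM in FBS, MS- and MS+ of rat 1 and at 0.663, 12.7 and 35.0 CPM in rat 2. Slco2a1 stood at 78.6, 176 and 437 CPM in rat 1 and at 190.3, 364 and 706 CPM in rat 2. Nov stood at 270.4, 1506 and 2007 CPM in rat 1 and at 763, 2560 and 2837 CPM in rat 2. In these 3 genes, as in Penk, the sera kept 1 order within each rat and rat 2 lay above rat 1 in every serum. They were picked for likeness to Penk over the same libraries, so this likeness was built into the choice and supports nothing. The most opposite profiles were those of H19 (0.90, on a row that overlaps another), Nes (0.96) and Siglec10 (1.03). Nes (nestin), an intermediate filament of immature cells, stood at 136, 32.2 and 16.9 CPM in rat 1 and at 93.2, 23.5 and 8.63 CPM in rat 2.

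**Figure D4:**
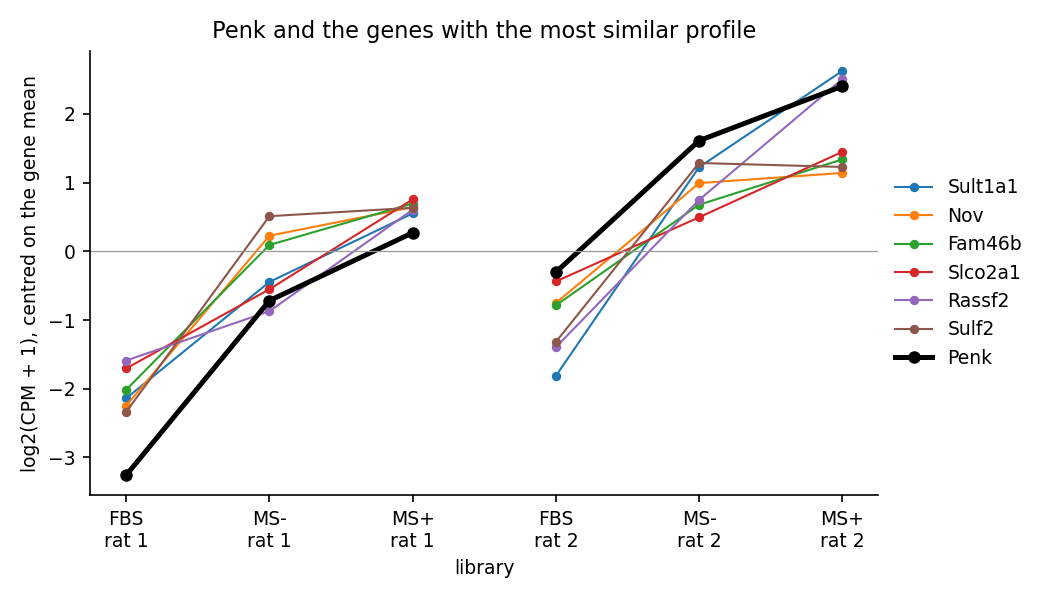
Centred log2(CPM + 1) of Penk (thick black) and the 6 features with the smallest root mean square difference to it (0.80 to 0.91), for the 3 sera of rat 1 and then of rat 2. Each line is lowest in FBS of its rat, and the lines of rat 2 end above those of rat 1, with Penk spanning the widest range from FBS of rat 1 to MS+ of rat 2.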

How the data were processed

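Poly(A) RNA of 6 cultures (2 rats, 3 sera) was sequenced. Per the labels and the submitters' processing notes, the authors aligned reads to rn4 with Bowtie2 2.1.0 and counted them per RefSeq transcript with HTSeq 0.5.4p3. The deposited values are a signal in reads per 1000000 (CPM) with size factors of edgeR's TMM kind; whole reads were recovered from their steps for 100% of values (tolerance 1e-06 reads). No per-sample column was left unmapped, and no column of the authors' comparisons was present.

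Features with at least 1 CPM in both libraries of 1 or more sera (9820) were fitted with limma 3.58.1 in R 4.3.3 (trend) on log2(CPM + 1), all 6 libraries together, serum as the only term. Fold changes on this scale understate those of low genes. Alternatives were pseudocount 0.1, no filter, library totals, median-of-ratios factors, edgeR 4.0.16, limma-voom, the rat as a replicate block, and omission of each library; edgeR with the block and single-rat differences were added after the data were seen. The fit was also run on simulated data, which were drawn without a difference between rats and so do not cover the rat differences seen here. Replicate numbers pair the libraries, since the labels name the same rat in each serum; the rat differences correlated across features at r = 0.494 to 0.616 between sera.

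The 9 genes and all gene and marker lists were chosen with earlier results of these data known. Named are all 9, and for each list the gene of highest mean CPM and up to 4 genes with the largest fold past either threshold, plus the 6 profiles most like Penk and the 3 most opposite; Mme, Ogfrl1, Pcsk1, Pcsk2, Chga, Chgb, the marker genes and the genes that differed between rats fall outside this rule and were named after their values were seen, as were Adcy6, Rgs16, Ackr3 and the AP-1 genes given without values. Symbols not in the table are not analysed here. Gene levels were not divided by transcript length, so levels are not compared between genes.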

Additional observations from a re-analysis of the deposited data

How the results depend on the processing

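The count of features past the adjusted threshold changed with the pairing by rat and with single libraries. For MS+ against MS- it was 2, and 987 with the rat as a replicate block (1015 by edgeR with the block), 4 by limma-voom, 0 without a filter on low values and 0 to 0 with 1 library left out, where 918 to 1385 features had an unadjusted p under 0.05 (1617 without the filter); median-of-ratios factors gave 2 higher and 1 lower in place of 1 and 1. For MS+ against FBS it was 944, and 2773 with the block (edgeR 2861), 586 without a filter and 25 (without the MS+ library of rat 1) to 602 with 1 library left out. For MS- against FBS it was 472, and 2011 with the block (edgeR 2073), 255 without a filter and 105 (without the FBS library of rat 1) to 280 with 1 library left out. The study rule gave 122 features for MS+ against MS-, and 215 with pseudocount 0.1, 234 by edgeR, 215 by limma-voom, 289 by edgeR with the block and 125 to 206 with 1 library left out; for MS- against FBS it gave 355, and 537 by edgeR with the block. The opioid pathway genes past it numbered 1 for MS+ against MS-, and 0 to 1 with 1 library left out; for MS- against FBS they numbered 3, and 5 by edgeR with the block. The cause of these shifts was not tested.

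Penk kept its direction except for MS+ against MS- without the MS- library of rat 1 (-0.27) or the MS+ library of rat 2 (-0.18), within a range of -0.27 to 2.05. Each of these omissions leaves the rats unevenly spread over the sera. Within rat 1 the Penk difference of MS+ against MS- was 0.99 and within rat 2 it was 0.79. Pomc for MS- against FBS turned from -0.18 to 0.13 without the MS- library of rat 1 and to 0.21 within rat 2, within a range of -0.49 to 0.13 when 1 library was left out. Of the 34 calls of single listed genes, 10 were kept under every alternative, 24 were lost under at least 1, and 0 reversed. With 2 rats and 1 library per rat and serum, rat and culture cannot be told apart within a serum.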

Other observations

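Of 36 precursors of other secreted peptides, 9 passed the filter on low values, and of these Adm and Nucb2 rose and Edn1 fell in MS+ against FBS. Nppc, the precursor of C-type natriuretic peptide, stood at 0.327 and 0.166 CPM in FBS, 1.46 and 0.542 in MS-, and 9.91 and 12.1 in MS+, on 135 reads in all. It passed the filter only through MS+, so that a difference was built into its inclusion and its tests support nothing. Its difference was 3.27 for MS+ against FBS (SE 0.30, limma adjusted p = 0.00438) and 2.62 for MS+ against MS- (SE 0.30, adjusted p = 0.0729, 6.4e-05 with the rat as a replicate block, 1.7e-05 to 0.46 over the alternatives). The size of the difference from FBS, where Nppc was below the floor of 3 reads in both libraries, depended on the scale: 5.04 with pseudocount 0.1, 5.35 by edgeR and 5.11 by limma-voom. Adm (adrenomedullin), a vasodilator peptide, stood at 8.35 and 5.31 CPM in FBS, 6.77 and 6.33 in MS-, and 14.8 and 19.3 in MS+. It rose by 1.22 against FBS (SE 0.25, adjusted p = 0.0293), a call lost without the FBS library of rat 2 (0.94, adjusted p = 0.107), and passed the study rule against MS- (1.25, SE 0.25, adjusted p = 0.126, 0.00244 with the block, 0.0012 to 0.46 over the alternatives).

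Nucb2, the precursor of nesfatin, rose against FBS in both blood sera, by 0.98 in MS+ (SE 0.13, adjusted p = 0.00938) and 0.82 in MS- (SE 0.13, adjusted p = 0.0219), from 180.2 and 199 CPM in FBS to 311 and 361 in MS- and 339 and 414 in MS+. Its MS+ call was lost without the FBS library of rat 1 (adjusted p = 0.0613) or the MS+ library of rat 2 (0.0566), and its MS- call without any of the 4 libraries compared (0.0639 to 0.133). Edn1, the precursor of endothelin, stood at 87.2 and 48.2 CPM in FBS, 65.7 and 39.6 in MS-, and 40.4 and 22.6 in MS+. It passed the study rule as lower in MS+ than in FBS (-1.08, SE 0.38, adjusted p = 0.125, 3.8e-06 with the block, 1.0e-06 to 0.43 over the alternatives), but not without the FBS library of rat 1 (-0.66) or the MS+ library of rat 2 (-0.67).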
